A study of Mus musculus with 4 samples.

Results

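The nuclei described here are GABAergic neurons of the mouse forebrain with high Adarb2, 173 of the 7309 barcodes with more than 2000 UMIs (unique molecular identifiers, 1 per counted RNA molecule) in 4 single-nucleus RNA libraries. They were chosen by their own counts: at least 3 UMIs and at least 0.02% of UMIs from Gad1 and Gad2 together, less than 0.1% from the striatal genes Rgs9, Pde10a and Rarb, at least 10 UMIs of Adarb2, and no fewer Adarb2 UMIs than the sum of Lhx6, Nxph1 and Sst. Levels of these 9 genes in the members therefore restate the choice and support nothing further. The study followed permanent occlusion of the middle cerebral artery, which was coagulated and cut through a burr hole and leaves a small cortical infarct. Male C57Black/6 mice of 3 months gave 1 library for the sham control and 1 each for 1, 3 and 7 days after occlusion, and every library pooled 3 forebrain hemispheres. The treatment notes name intact cortex of mice of the same age as the control, whereas the design names forebrain hemispheres at every time point. The study's breakdown of nuclei by time point matched these libraries only with the labels of the last pair of time points exchanged. The deposited labels are kept throughout, so any order of the 2 later time points rests on them.

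With 1 library a group, no difference between time points could be tested. Intervals given below are exact 95% intervals for counting error alone, and the spread between animals is unknown. In summed counts, fewer nuclei of a kind and less RNA per nucleus cannot be told apart.

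Adarb2 encodes an RNA-binding protein of the ADAR family and marks inhibitory neurons born in the caudal ganglionic eminence, an embryonic source of cortical interneurons that runs beside the medial eminence, the source of Lhx6 cells. In the cortex these neurons include bipolar cells with the peptide Vip, which mostly inhibit other interneurons, neurogliaform cells with Lamp5 and Reln, which release GABA diffusely in the upper layers, and basket cells with Cck and the cannabinoid receptor Cnr1. Prox1, Nr2f2 and Npas1 are transcription factors of this lineage. Adarb2 is also made by GABAergic neurons outside the cortex, among them cells of the amygdala, the basal forebrain and the thalamus.

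The sham, day 1, day 3 and day 7 libraries held 49, 36, 58 and 30 members. The nearest class by the rule, GABAergic nuclei with at least 10 UMIs of Lhx6, Nxph1 and Sst and more of these than of Adarb2, held 57, 42, 58 and 37 nuclei and serves below as the neighbouring class (the Lhx6/Nxph1 nuclei). Median depth was 8435, 15779.5, 6526 and 8673 UMIs a member, and median genes detected were 3436, 4793, 2838 and 3216, so day 1 members were the deepest. Libraries totalled 23285489 to 42963698 UMIs. Between 0 and 3 barcodes above 2000 UMIs were shared by any pair of libraries and no member barcode was a member elsewhere, though 1 sham member's barcode also passed 2000 UMIs in the day 1 library.

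Adarb2 in a member ran from 10 to 443 UMIs, with medians of 42, 65, 32.5 and 27.5 by library. At the threshold, 23 members held 10 to 14 Adarb2 UMIs, 4 of them exactly 10, while 24 GABAergic nuclei with 5 to 9 stayed outside, 5 of them with exactly 9. Of 185 GABAergic nuclei with 10 or more, 12 had more Lhx6, Nxph1 and Sst than Adarb2. The gene itself does not single out this class in the data: 779 barcodes held 10 or more Adarb2 UMIs, and in 430 of those Gad1 and Gad2 were under 3 UMIs. Adarb2 lies on chromosome 13 (chr13:8202866-8768747, plus strand, GRCm38), and its introns are counted in nuclear RNA.

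The label of Adarb2 interneuron held for only a part of the members. Vip was found in 26 of 173 members (15.03%) against 2.79% of glutamatergic nuclei (Slc17a7 nuclei, in which Vip is free RNA at most), although members were shallower, at a median of 8913 UMIs against 12899.5. Lamp5 was found in 42 members (24.3%), a share close to the 23.2% of glutamatergic nuclei. At least 1 UMI of Vip or Lamp5 was seen in 64 members (37.0%, 29.8 to 44.7). Prox1 was seen in 22.5% of members against 5.08% of glutamatergic nuclei, Nr2f2 in 22.0% against 6.39%, Npas1 in 15.03% against 1.23%, and the serotonin channel subunit Htr3a in 7 members (4.05%) against 0.082%. Cck stood at 31.8% against 57.7% of glutamatergic nuclei, which make Cck themselves. The vesicular GABA transporter Slc32a1 was found in 37.0% of members against 7.21%, and the neuregulin receptor Erbb4 in 82.1% against 32.2%. Of the Lhx6/Nxph1 nuclei, at a median of 10992 UMIs, 3.61% held Vip, 12.4% Lamp5, 17.0% Prox1, 17.5% Nr2f2, 10.3% Npas1, 51.0% Slc32a1 and 90.7% Erbb4. Nr2f2 was at 38.4 CPM in members and 42.6 CPM in Lhx6/Nxph1 nuclei, with log2 ratios of 0.82, -1.41, 0.020 and 1.95 in sham, day 1, day 3 and day 7, so that members were higher in all libraries but day 1. Assigned to the marker set that was highest relative to its mean share over members, with at least 3 UMIs, 16 members went to the Vip set, 41 to the Lamp5 set, 22 to the Sncg set, 52 to the subcortical set led by Meis2 and Foxp2, and 42 to none; 8 of the 131 assigned nuclei had a second set within 1.5 times. The members are therefore called Adarb2 GABAergic nuclei below.

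Clustering of the members on 4 principal components, with the genes of the rule removed, split them into 5 clusters, each named here for a leading gene. Because the same counts made the clusters, their defining genes are a description. The Vip cluster (30 nuclei) and the Kit cluster (29 nuclei) held the cortical markers, and together they made up 59 of 173 members (34.1%, 27.1 to 41.7). The other 3 clusters, Klhl1 (71 nuclei), Foxp2 (31) and Igfbpl1 (12), held few of them.

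**Figure D1:**
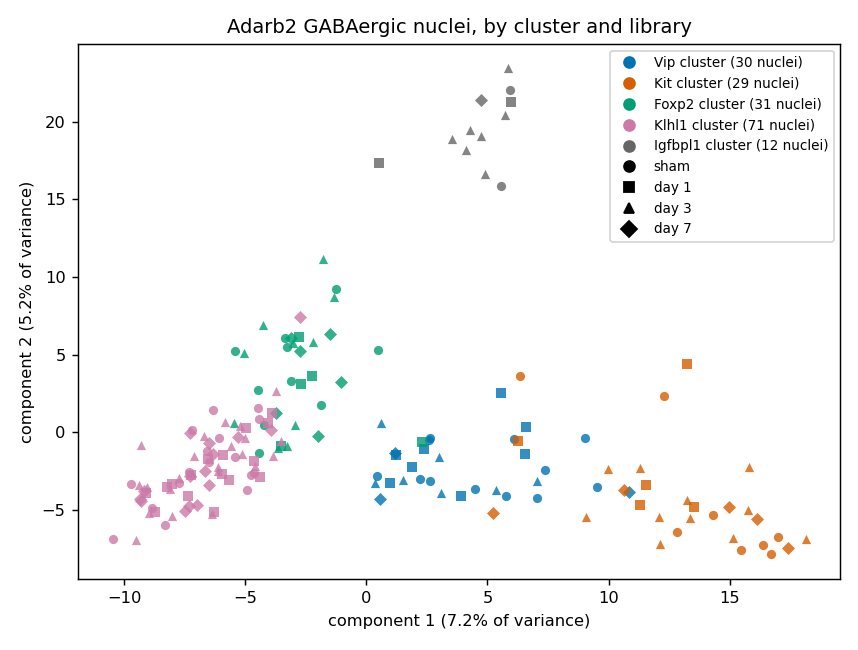
First principal component (7.2% of variance) against the second (5.2%) for the 173 Adarb2 GABAergic nuclei, 1 point a nucleus, coloured by cluster and shaped by library. Each cluster holds nuclei of all 4 libraries, and the 12 nuclei of the Igfbpl1 cluster lie apart on the second component.

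In the Vip cluster, Vip stood at 459 CPM (the gene's share of the summed UMIs, scaled as is usual for CPM) in 18 of 30 nuclei. The same cluster held Cnr1 at 493 CPM in 24 nuclei, Npas1 at 133 CPM in 16, Prox1 at 153 CPM in 16 and Synpr, a synaptic vesicle protein, at 719 CPM in 24, beside the highest Adarb2 level of the 5 clusters (10899.6 CPM). Other markers of bipolar cells were sparse. Over all members, the peptide genes Crh and Tac2 had 11 and 23 UMIs, the calcium buffer Calb2 had 5 UMIs and Crispld2 had 0. The basket cell marker Sncg had 4 UMIs in all, so that a separate Sncg type could not be seen at this depth.

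The Kit cluster resembled neurogliaform cells in its markers. Kit, a receptor tyrosine kinase, stood at 378 CPM in 26 of 29 nuclei, Reln, a secreted matrix glycoprotein, at 1191 CPM in 24, Lamp5 at 138 CPM in 21, Ndnf at 148 CPM in 15, Hapln1 at 121 CPM in 17 and Npy at 162 CPM in 18. It also held Nxph1 at 1947 CPM in 28 nuclei, a gene that the rule weighs against Adarb2. Erbb4 reached 7535 CPM here and 8476 CPM in the Vip cluster, against 1245 CPM in the Klhl1 cluster.

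The Klhl1 cluster was the most numerous (41.0%, 33.6 to 48.8), and 40 of its 71 nuclei reached none of the marker sets. Klhl1, an actin-binding kelch protein, stood at 277 CPM in 43 of 71 nuclei. All UMIs of Lhx8 in the members, in 28 nuclei at 62.4 CPM, lay in this cluster. Lhx8 is a transcription factor of the ventral forebrain that is needed for cholinergic neurons. The choline transporter Slc5a7 (43.6 CPM, 6 nuclei) and choline acetyltransferase, Chat (12 UMIs, 3 nuclei), were found in few of them, and 31 of the 36 Lhx6 UMIs of the members fell here. Prox1 had 2 UMIs. Gpc5, a heparan sulfate proteoglycan, stood at 2286 CPM but in only 40 nuclei, and Galntl6, a glycosyltransferase family member, at 5080 CPM.

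The Foxp2 cluster held Foxp2 at 1249.6 CPM in 25 of 31 nuclei and Meis2 at 1341 CPM in 30, both transcription factors of striatal and amygdalar neurons. Tshz1, a zinc finger factor of the same regions, stood at 196 CPM in 22 nuclei, Chst9, a sulfotransferase, at 384 CPM in 16 and Otof at 63.5 CPM in 16. Its Adarb2 level was the lowest of the clusters (1895 CPM). It held 13 of the 23 members just above the Adarb2 threshold and 3 of the 4 members scored as doublets.

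The Igfbpl1 cluster was small, with 2, 2, 7 and 1 nuclei by library. It carried genes of immature neurons: Igfbpl1 at 210 CPM in 7 of 12 nuclei, Dcx, which binds microtubules in migrating neurons, at 340 CPM in 11, and the progenitor factors Sox4 and Sox11 at 181 CPM each. Meis2 reached 3361 CPM and the antisense transcript Dlx6os1 1272 CPM. The same cluster also held astrocyte RNA, with Apoe at 3484 CPM and Slc1a3 at 369 CPM. Of its Gfap UMIs, 134 came from the 2 day 1 nuclei, and 1, 3 and 0 from the sham, day 3 and day 7 nuclei. Dcx alone does not mark these nuclei, since it was seen in 59.5% of members and in 57.5% of glutamatergic nuclei.

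**Figure D2:**
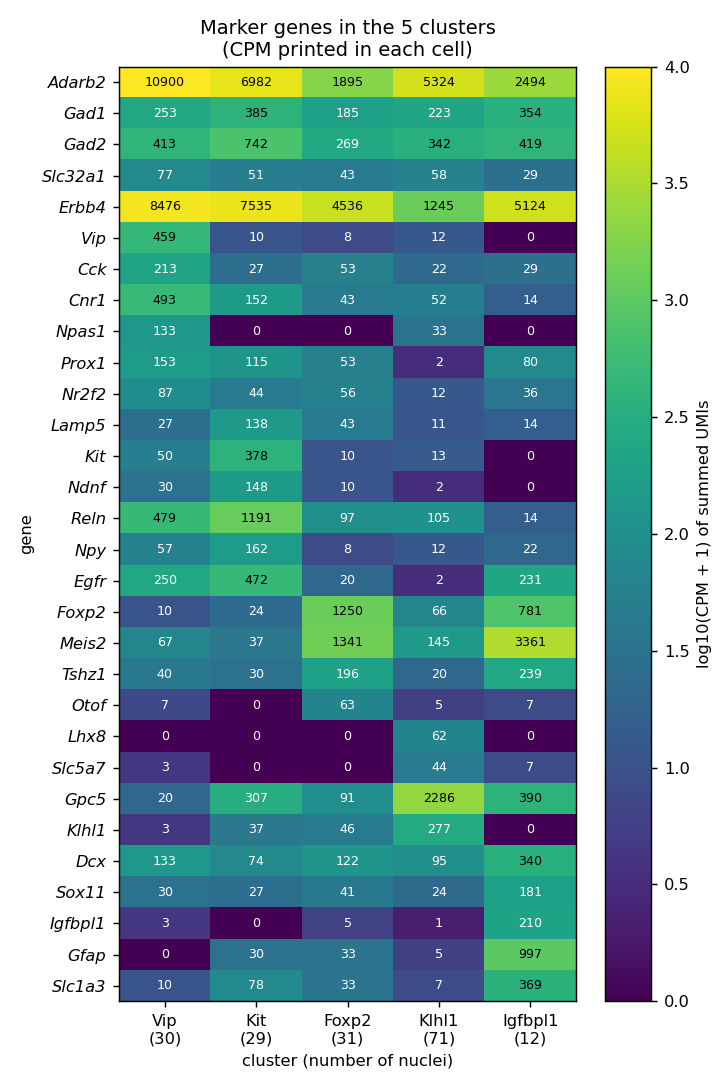
Level of 30 marker genes in the 5 clusters, coloured by log10(CPM + 1) of the summed UMIs and printed as CPM. Vip, Cnr1, Kit and Reln are highest in the Vip or Kit column, Lhx8 is above 0 only in the Klhl1 column, Foxp2 is highest in the Foxp2 column, and Meis2, Tshz1, Igfbpl1 and Gfap are highest in the last.

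Markers of other cell types were read in the members as a check. Glutamatergic markers summed to 379.6 to 409 CPM in the 4 libraries, against 1453 to 1561 CPM in glutamatergic nuclei. Astrocyte markers stood at 232, 353, 246 and 181 CPM for sham, day 1, day 3 and day 7, and 177 of the 231 day 1 UMIs came from 1 nucleus of the Igfbpl1 cluster. Of the 6 astrocyte markers, Aqp4 and Gja1 were at 0 at day 7. Oligodendrocyte markers stood at 329, 196, 362 and 150.1 CPM, with 97 of the 182 day 3 UMIs in 1 nucleus. Vascular markers stood at 11.98, 3.06, 181 and 3.13 CPM, with 77 of the 91 day 3 UMIs in 1 nucleus, and 4 of the 5 vascular markers were at 0 at day 1 and at day 7 but only 1 in sham and 0 at day 3. Microglial markers were 99.8, 177, 161 and 103 CPM. Precursor markers of the oligodendrocyte lineage were 84.5 to 102 CPM, with 22 of the 27 day 7 UMIs in 1 nucleus. Striatal markers were 644 to 704 CPM. The neuroblast list reached 262 CPM at day 3, where 7 nuclei of the Igfbpl1 cluster lay, against 148 CPM in sham, 182 CPM at day 1 and 131 CPM at day 7. Of its 132 day 3 UMIs, 43 came from 1 nucleus of that cluster. The part of these RNAs in the differences below was not tested, except where values without the Igfbpl1 cluster are given.

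Members were 2.58% (1.91 to 3.39) of barcodes above 2000 UMIs in sham, 3.44% (2.42 to 4.74) at day 1, 2.03% (1.54 to 2.61) at day 3 and 2.00% (1.35 to 2.84) at day 7. All 4 intervals overlapped. As a share of GABAergic nuclei outside the striatal projection neurons, members were 28% of 175 in sham, 27.7% of 130 at day 1, 31.2% of 186 at day 3 and 27.3% of 110 at day 7, and intervals again overlapped. Day 1 nuclei were the deepest, and with every nucleus thinned to 2000 UMIs and Adarb2 at 2 UMIs or more the order turned: day 1 was then the lowest, with 2 members of 1045 barcodes (0.191%, 0.0232 to 0.690) against 9 of 1901 in sham (0.473%, 0.217 to 0.897). Of GABAergic nuclei these were 2 of 14 (14.3%, 1.78 to 42.8) and 9 of 20 (45.0%, 23.1 to 68.5). The turned order rests on these few nuclei, and the intervals overlapped. The share of the whole library moves with every other cell type in it, whereas the share of GABAergic nuclei moves with the Lhx6/Nxph1 nuclei and the remaining GABAergic nuclei.

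Within the members, the Vip cluster was 24.5% of sham, 22.2% of day 1, 12.1% of day 3 and 10.0% of day 7 nuclei. The Klhl1 cluster was 34.7%, 44.4%, 39.7% and 50%. The Kit cluster stayed between 13.9% and 19.0% and the Foxp2 cluster between 13.9% and 20.4%. For every cluster the 4 intervals overlapped, and because Gpc5, one of the leading genes, itself differed between libraries, the sizes are given as values only. The Vip and Kit clusters together were 40.8% of sham, 36.1% of day 1, 31.0% of day 3 and 26.7% of day 7 members.

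**Figure D3:**
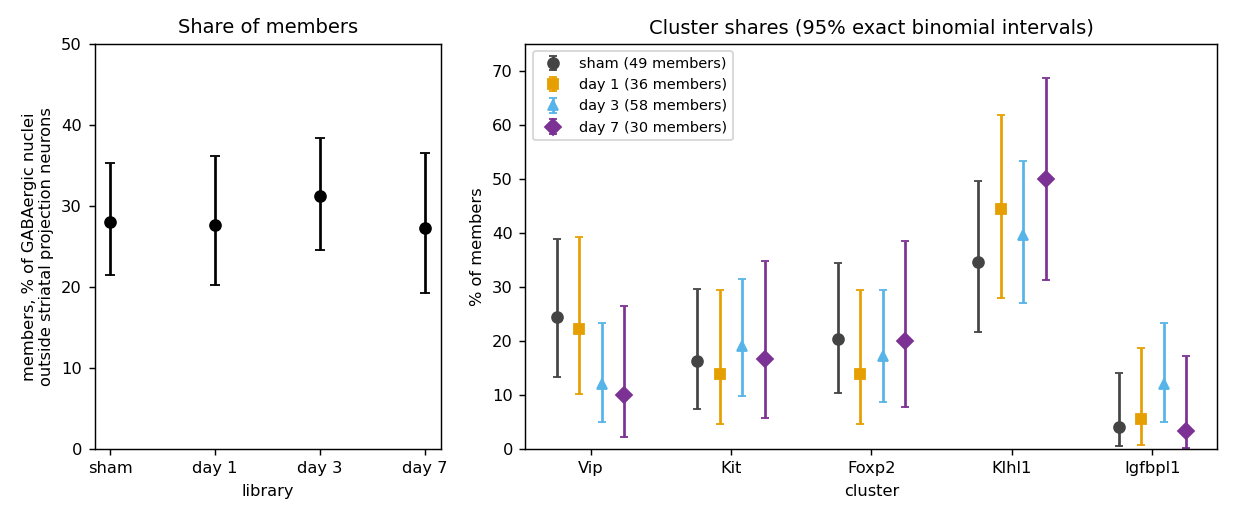
Left, members as a percent of GABAergic nuclei outside the striatal projection neurons in each library; right, percent of members in each cluster by library; bars are exact binomial 95% intervals. On the left the 4 shares lie between 27.3% and 31.2%, and on the right all intervals within a cluster overlap.

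Set against the Lhx6/Nxph1 nuclei of the same library, the members could be described in each of 4 libraries. Of 9176 genes measured, 37 were at least 2-fold higher and 43 at least 2-fold lower in all 4 libraries. The rule itself drew this contrast, so the values are a description. Nfib, a transcription factor of developing neurons, was 549 CPM in members and 192 CPM in Lhx6/Nxph1 nuclei (log2 ratios of 1.55, 1.34, 1.41 and 2.06 in sham, day 1, day 3 and day 7). Prox1 was 57.6 against 30.8 CPM, with log2 ratios of 0.09, 2.36, 1.15 and 0.53. Maf and Zeb2, transcription factors of the same list that medial eminence cells also use, were lower in members in all 4 libraries, at 99.1 against 196 CPM and 350.4 against 524 CPM.

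Of the 10 highest genes some lay mainly in 1 cluster and others in several. Chst9 stood at 89.5 CPM against 11.8 CPM in Lhx6/Nxph1 nuclei and lay in the Foxp2 cluster. The noncoding transcript 2610307P16Rik, 81.9 against 3.81 CPM, lay in the Igfbpl1 cluster. Sorcs3, a sorting receptor of the VPS10 family, was 711 against 156 CPM and highest in the Vip cluster (1495 CPM) but also 754 CPM in the Klhl1 cluster, whereas Ndst4, a heparan sulfate sulfotransferase, was 229 against 41.5 CPM and highest in the Klhl1 cluster (484 CPM). Hcrtr2, the orexin receptor, was 66.2 against 12.2 CPM. By contrast Eda, a ligand of the tumour necrosis factor family, was 108 against 27.0 CPM and stood between 67.5 and 145 CPM in every cluster. The remaining 4 of the 10 highest were Sema3c (119 against 19.8 CPM), Tshz1 (74.8 against 14.5 CPM), Megf10 (61.7 against 5.71 CPM) and Rgs12 (39.9 against 7.23 CPM).

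Lower in the members were Eya4, at 7.58 against 138 CPM with log2 ratios of -3.74, -4.47, -2.90 and -4.64, although Eya4 had been listed as a marker of the Lamp5 type. Cemip, which binds hyaluronan, was 34.9 against 187 CPM, the ubiquitin ligase Rnf144b 20.7 against 142 CPM, the kinase Nek7 15.2 against 101 CPM and the delta opioid receptor Oprd1 9.10 against 71.2 CPM. Moxd1 was 2.53 against 48.4 CPM, Myo1e 10.6 against 78.0 CPM and Mypn 3.03 against 41.5 CPM, and Sox5os4 and Rbm20 completed the 10 lowest.

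Levels of ion channels and receptors in the 2 classes are given as values. The share of all genes that were higher or lower at any fold in all 4 libraries is not given here. Of the potassium channel genes, the A-type subunits Kcnd2 (2371 against 1652 CPM) and Kcnd3 (302 against 173 CPM) and their partner Kcnip4 (6873 against 3648 CPM) were higher in members in all 4 libraries. The subunits of fast spiking, Kcnc2 (831 against 1535 CPM) and Kcnc1 (156 against 222 CPM), and the calcium-activated channel Kcnma1 (760 against 1468 CPM) with its partner Kcnmb2 (296 against 719 CPM), were lower in all 4. The AMPA receptor subunits Gria1 (938 against 1750.2 CPM), Gria3 (446 against 842 CPM) and Gria4 (1259 against 1739 CPM) were lower in all 4 libraries. Gria2 was 1146 against 1161 CPM and higher in 2 of 4 libraries. The GABA-A subunits Gabrb2 (618 against 389 CPM), Gabra2 (271 against 168 CPM) and Gabrg1 (64.7 against 25.1 CPM) were higher, and Gabrd, a subunit of tonic receptors, was lower (13.7 against 41.9 CPM). Receptors for modulators were higher in members in all 4 libraries for Cnr1 (129 against 49.5 CPM), the nicotinic subunit Chrna7 (105 against 48.4 CPM), the mu opioid receptor Oprm1 (122 against 57.9 CPM) and the serotonin receptor Htr4 (73.3 against 46.4 CPM). The adhesion genes Il1rapl2 (383 against 1099 CPM) and Cntnap4 (186 against 378 CPM) were lower.

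**Figure D4:**
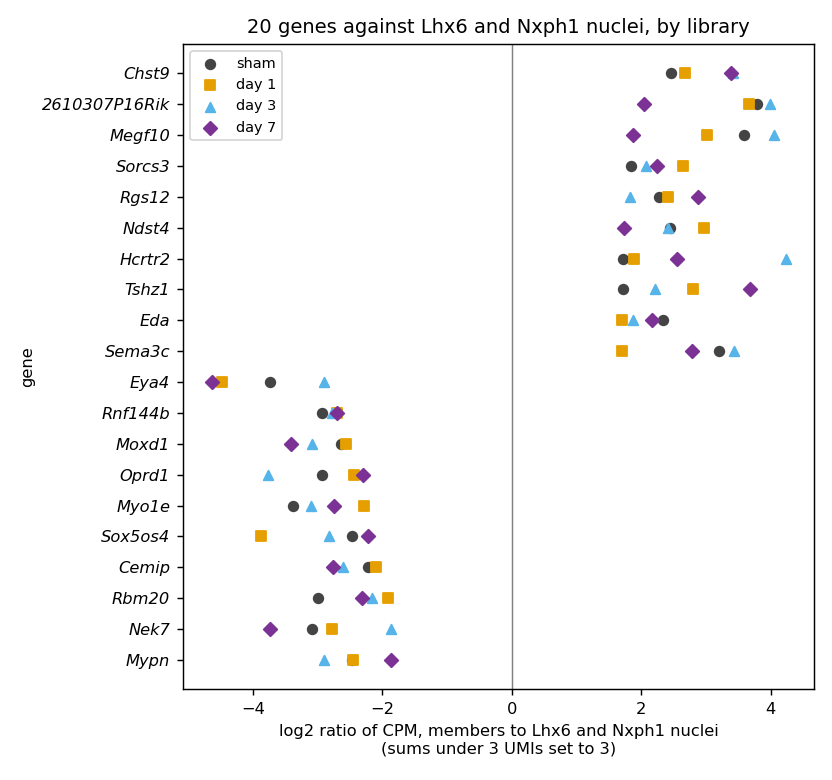
Log2 ratio of CPM in Adarb2 GABAergic nuclei to CPM in Lhx6/Nxph1 nuclei for the 10 highest and 10 lowest genes, 1 point for each of the 4 libraries. Every point lies beyond 1 or -1, as the choice of the genes requires.

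Each day was then set against sham to ask which genes of the members differed after the occlusion. Genes with at least 50 UMIs over the members of all 4 libraries were compared, and the call is a CPM ratio at or past 2-fold. At day 1, 163 of 6263 genes were past 2-fold higher (2.6%) and 127 lower (2.03%). At day 3, 201 of 6261 were higher (3.21%) and 134 lower (2.14%). At day 7, 150 were higher (2.4%) and 443 lower (7.08%), and 318 of the 443 had under 100 UMIs in all. An interval that left out a ratio of 1 was found for 130 of the higher and 111 of the lower genes at day 1, 165 and 96 at day 3, and 107 and 242 at day 7. The median log2 ratio over all genes was -0.01, -0.01 and -0.05. Of the 443 genes lower at day 7, 438 were measured in Lhx6/Nxph1 nuclei, where 254 (58.0%) were also below sham, near the 54.1% of all 6254 genes measured there. The split moved with the processing. With an estimate of free RNA subtracted, higher against lower was 275 and 584 of 5785 genes at day 1. It was 479 and 308 of 5892 at day 3 and 539 and 441 of 5949 at day 7. With every nucleus thinned to 2000 UMIs, only 1250 genes were compared. Of these, 32 (2.56%) and 45 (3.6%) were called at day 1 and 36 (2.88%) and 49 (3.92%) at day 7. With the clusters weighted equally the split was 166 and 178 at day 3. At day 3 it was 147 and 182 with members taken by Adarb2 at 0.1% of UMIs, and 152 and 212 without the Igfbpl1 cluster.

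For each day 5 genes each way were named by their counting margin, leaving out genes with over 30% of UMIs in 1 nucleus. That left out Gpc5 at day 1, where 1 nucleus held 31.2% of its UMIs. Of those named at day 1, Zfp804a, a zinc finger gene, stood at 353 CPM in sham, 783 at day 1, 584 at day 3 and 807 at day 7. All 3 days lay above sham, with a day 1 ratio of 2.22 (1.86 to 2.64), while in Lhx6/Nxph1 nuclei the same ratio was 0.86 (0.76 to 0.97). Most of its UMIs came from the Klhl1 cluster, at 407, 1154, 886 and 1532 CPM. At day 7 the Vip (0 against 317 CPM in sham), Kit (167 against 228 CPM) and Foxp2 (160 against 412 CPM) clusters were below their sham values. A single nucleus held 32.9% of the Zfp804a UMIs at day 7. Cntnap5b, a contactin-associated adhesion protein, stood at 537, 187, 322 and 332 CPM. Sham was the highest library, the day 1 ratio was 0.35 (0.28 to 0.43), and in Lhx6/Nxph1 nuclei it was 1.29 (1.06 to 1.56). Neither difference between the classes was tested.

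Other genes high at day 1 were Kctd8, a subunit that shapes GABA-B receptor signalling, at 102, 263, 203 and 219 CPM (ratio 2.58, 1.88 to 3.60), the noncoding RNA Rmst at 104, 301, 193 and 125 CPM (2.90, 2.13 to 4.02), and Gm15892 with 4, 37, 7 and 4 UMIs (7.08, 2.55 to 27.4). Rmst at day 1 was 1.48 times its sham level in Lhx6/Nxph1 nuclei, Kctd8 1.18 times and Gm15892 2.01 times, and Gm15892 was also higher in glutamatergic nuclei (2.84, 1.75 to 4.82). Genes low at day 1 included Cadps2, which primes dense-core vesicles, at 272, 97.9, 167 and 206 CPM (0.36, 0.26 to 0.49), and it was also lower in glutamatergic nuclei (0.51). The phosphodiesterase genes Pde11a (264, 99.4, 107 and 87.6 CPM) and Pde7b (182, 65.8, 121 and 131 CPM) were highest in sham, with day 1 ratios of 0.38 (0.28 to 0.51) and 0.36 (0.25 to 0.53). Gfra1, a receptor for the glial neurotrophic factor GDNF, stood at 87.9, 25.99, 67.6 and 78.2 CPM (0.30, 0.16 to 0.53), and was lower at day 1 in glutamatergic nuclei too (0.44).

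At day 3 the lower genes included Kctd16, another GABA-B receptor partner, at 1753, 1066, 863 and 1536 CPM, lowest at day 3 with a ratio of 0.49 (0.44 to 0.55). In sham it was 3040 CPM in the Vip cluster and 4386 CPM in the Kit cluster but 198 CPM in the Klhl1 cluster, and with the clusters weighted equally its log2 ratio was -0.50 in place of -1.02. Magi1, a scaffold of cell junctions, stood at 941, 524, 453 and 901 CPM (0.48, 0.41 to 0.57), and Lhx6/Nxph1 nuclei were lower too (0.66). Pde11a was again low (0.41, 0.29 to 0.56). Sgcz, a sarcoglycan, had a ratio of 0.53 (0.49 to 0.58), and Zfp444 had 25, 25, 6 and 2 UMIs (0.24, 0.08 to 0.60).

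Of the 5 genes named as higher at day 3, 3 stood higher in free RNA than in the members. Tuba1a, a tubulin of growing neurites, had 22, 48, 74 and 19 UMIs (day 3 ratio 3.35, 2.06 to 5.66), and 30 of the 74 lay in the Igfbpl1 cluster. Mt2, a metallothionein, had 7, 53, 29 and 0 UMIs (4.12, 1.77 to 11.2), and 47 of the 53 at day 1 came from 1 nucleus of that cluster. In barcodes of at most 100 UMIs, which hold free RNA, Tuba1a stood at 596 to 856 CPM, Rpl37 at 374 to 651 CPM and Mt2 at 200 to 419 CPM, all above the members. Rpl37, a ribosomal protein gene, had 8, 33, 34 and 5 UMIs (4.23, 1.92 to 10.6), and Pde3a, a phosphodiesterase, had 19, 49, 60 and 34 UMIs (3.14, 1.85 to 5.58), with 44 of the 60 at day 3 in the Klhl1 cluster. Free RNA of Pde3a stood at 5.94 CPM at day 3 against 119 CPM in the members. The last was Srbd1 (7, 18, 29 and 6 UMIs, ratio 4.12, 1.77 to 11.2). Of the day 3 UMIs of Rpl37 and Srbd1, 15 each lay in the Igfbpl1 cluster, and without it the ratios were 2.79 (1.17 to 7.37) and 2.35 (0.89 to 6.88), the latter an interval that held 1. Rpl37 was 2.46 times sham in glutamatergic nuclei and 0.69 times in Lhx6/Nxph1 nuclei.

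Of the 5 genes named as higher at day 7, Gpc5 had the interval that lay farthest above 1. It stood at 229.6 CPM in sham, 1622 at day 1, 1026 at day 3 and 1361 at day 7 (day 7 ratio 5.93, 4.81 to 7.34). All 3 days after occlusion lay above sham, though 1 nucleus held 31.2% of the UMIs at day 1 and another 38.0% at day 3. The UMIs came mainly from the Klhl1 cluster, with 65, 1033, 479 and 363 UMIs in 6, 12, 11 and 11 nuclei, or 389, 3320, 2211 and 2357 CPM. With the clusters weighted equally the log2 ratio at day 7 was 1.70 in place of 2.57. Lhx6/Nxph1 nuclei stood at 218, 430, 218 and 130 CPM, so that day 1 was above sham there too and day 7 below it, at a ratio of 0.59 (0.43 to 0.81). The difference between the classes was not tested. Gpc5 lies on the plus strand (chr14:115092215-116525179), and Gm20713, one of the 5 genes named as higher at day 1 (31.9, 203, 87.5 and 116 CPM, ratio 6.37, 3.78 to 11.5), lies within it on the minus strand (chr14:115788144-115871278). The strand setting of the counting is not given in the sources used here, so reads of the pair cannot be told apart.

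Grin2a, the GluN2A subunit of the NMDA receptor, stood at 723, 777, 805 and 1617 CPM, and only day 7 was apart, at 2.24 (1.95 to 2.57). It was 1715 CPM in sham and 4024 CPM at day 7 in the Kit cluster, 599 and 2554 CPM in the Foxp2 cluster, but 425 and 390 CPM in the Klhl1 cluster. The deepest of the 5 Kit nuclei at day 7 held 61.5% of their UMIs, and without it the cluster stood at 4649.5 CPM, but all day 7 members at 1325 CPM, a ratio of 1.83 (1.58 to 2.12) that is short of 2-fold. The deepest of the 6 Foxp2 nuclei held 115 of 176 Grin2a UMIs, and without it the level was 1386 CPM. In Lhx6/Nxph1 nuclei the ratio was 1.39. Epha7, an ephrin receptor, stood at 102, 187, 169 and 256 CPM (2.52, 1.75 to 3.65), the homeobox gene Mkx had 11, 29, 33 and 30 UMIs (4.27, 2.08 to 9.45), and Gm20417 had 639, 1615, 810 and 801 UMIs (1.96, 1.77 to 2.18) with UMIs in all 173 nuclei. Gm20417 was also higher at day 7 in Lhx6/Nxph1 nuclei (1.51, 1.39 to 1.63) and in glutamatergic nuclei (1.68, 1.64 to 1.73).

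Reln was among the 5 genes named as lower at day 7, with at most 30% of the UMIs of the higher library in any nucleus, at 487.2, 303, 288 and 122 CPM (0.25, 0.17 to 0.35). The day 7 level was the lowest and sham the highest. In the Kit cluster Reln was 1357, 1299, 1872 and 213 CPM, with UMIs in 5, 5, 11 and 3 nuclei. The deepest of the 5 Kit nuclei at day 7 held 61.5% of their UMIs. In the Vip cluster Reln was 1147, 30.7, 383 and 394 CPM. There, 3 nuclei held 112 of the 244 sham UMIs of the members. In Lhx6/Nxph1 nuclei the day 7 ratio of Reln was 1.32. The others were Slc1a2, Glul, Ubb and Mir6236. Slc1a2, the glutamate transporter of astrocytes, had 139, 135, 213 and 20 UMIs (0.23, 0.13 to 0.36). Of the 213 at day 3, 152 lay in the Igfbpl1 cluster. Glutamine synthetase, Glul, had 27, 18, 32 and 0 UMIs. The interval of its day 7 ratio was 0 to 0.23, and with the 0 set to the floor of 3 UMIs it was 5.75-fold lower. Ubb, a ubiquitin gene, had 40, 30, 24 and 4 UMIs (0.16, 0.04 to 0.43), and Mir6236 had 204, 162, 106 and 25 UMIs (0.19, 0.12 to 0.29). Ubb and Mir6236 were also lower in Lhx6/Nxph1 nuclei, at 0.24 and 0.31, and in glutamatergic nuclei, at 0.29 and 0.28. Free RNA moved with both, from 1197 CPM in sham to 342 CPM at day 7 for Ubb and from 371 to 113 CPM for Mir6236. Free RNA of Slc1a2 (387 to 608 CPM) and of Glul (148 to 178 CPM) stood above the members in every library and was not lowest at day 7. The part of free RNA in these differences was not tested.

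**Figure D5:**
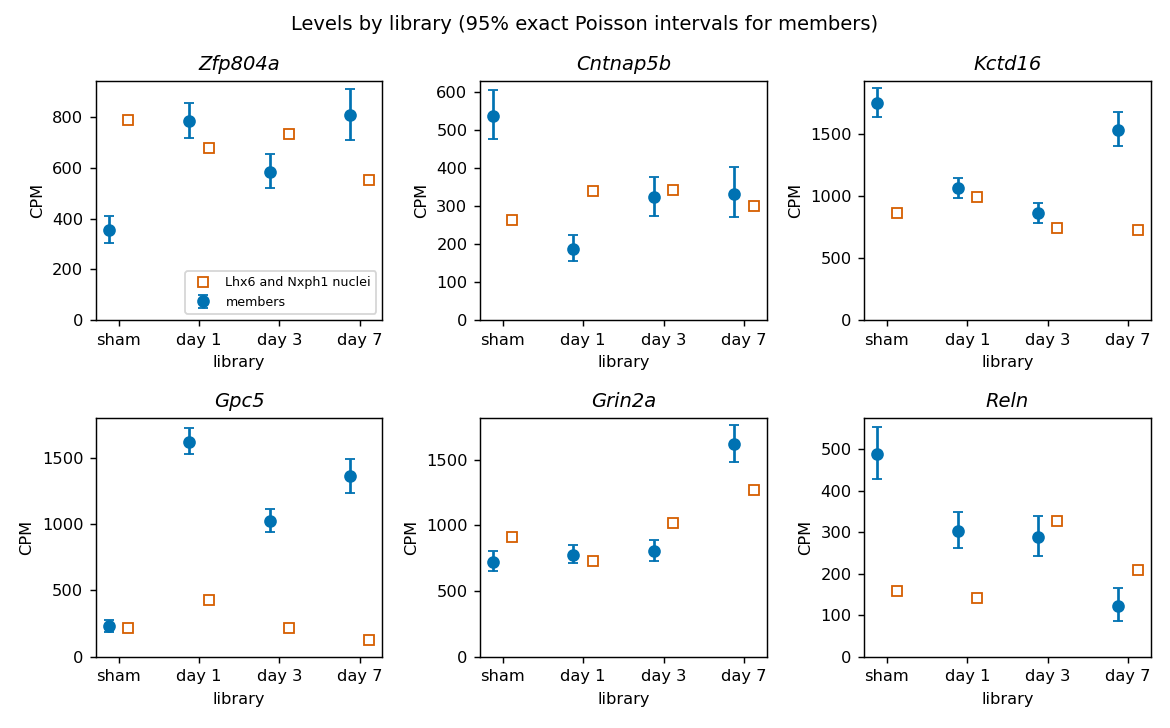
CPM by library (sham, day 1, day 3, day 7) of Zfp804a, Cntnap5b, Kctd16, Gpc5, Grin2a and Reln in Adarb2 GABAergic nuclei (filled points, exact Poisson 95% intervals) and in Lhx6/Nxph1 nuclei (open squares). Gpc5 and Zfp804a stand above sham on all 3 days, Grin2a at day 7, and Reln is lowest at day 7. In Lhx6/Nxph1 nuclei Zfp804a is highest in sham, and Gpc5 is above sham at day 1 only.

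The 17 gene lists were read the same way, each beside the medians and shares over all genes given above. For 16 lists with at least 3 measured genes, the median log2 ratio lay farther than its counting error above the all-gene median in 2 lists at day 1, 3 at day 3 and 4 at day 7, and below it in 6, 4 and 3. The split turned to 7 above and 2 below at day 1 with Adarb2 at 0.1% of UMIs, and at day 3 to 5 above and 0 below with the clusters weighted equally and to 5 and 2 without the Igfbpl1 cluster.

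Among the peptide genes, 3 of 12 had enough UMIs and 0, 1 and 2 of these were past 2-fold lower at day 1, day 3 and day 7, with none higher. Vip had 64, 61, 25 and 4 UMIs in 9, 9, 6 and 2 nuclei, or 127.8, 93.3, 49.7 and 12.5 CPM. The day 3 and day 7 ratios were 0.39 (0.23 to 0.63) and 0.10 (0.03 to 0.26), in libraries that held 7 and 3 nuclei of the Vip cluster. Inside that cluster Vip stood at 553, 422, 564 and 143 CPM, with UMIs in 6, 4, 6 and 2 nuclei, so day 3 was not below sham there. Cck had 44, 36, 28 and 8 UMIs (0.28 at day 7, 0.12 to 0.61), and Npy had 27, 19, 25 and 10 UMIs (0.58, 0.25 to 1.24). Of 7 measured genes of GABA synthesis and uptake, 1 was past 2-fold lower on each day and 0 higher, with list medians of -0.46, -0.01 and -0.10. At day 1 that gene was Aldh5a1, which degrades GABA (0.45).

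The list drawn up for caudal eminence transcription factors had 10 measured genes, among them Maf, Zeb2 and the transcript Dlx6os1. Of these, 1 was past 2-fold higher on each day and 0, 1 and 1 lower, and list medians were -0.26, -0.10 and -0.20. Npas1 had 7, 19, 18 and 24 UMIs and a day 7 ratio of 5.37 (2.25 to 14.8), and Nr2f1 was 0.43 (0.17 to 0.97) at day 7. Of the Npas1 UMIs, 1, 2, 9 and 16 lay in the Klhl1 cluster and 6, 17, 9 and 8 in the Vip cluster. Nfib was 0.71 at day 1. Growth factor signalling, with 14 measured genes and list medians of -0.28, -0.29 and -0.06, held 0, 1 and 0 genes past 2-fold higher and 2, 1 and 0 lower. At day 1 the lower genes were Egfr, the receptor of epidermal growth factor (0.39, 0.27 to 0.55), and Kit (0.47). The most abundant of the list, Erbb4, had ratios of 0.76, 0.86 and 0.51 (0.47 to 0.55 at day 7). At day 3 Igf1, a growth factor secreted by Vip neurons among others, was 0.46 and Nrg1, a ligand of Erbb4, was 2.03.

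Receptor and channel lists held few genes past 2-fold. None of 11 measured GABA-A subunits was past 2-fold on any day. Of 16 ionotropic glutamate receptor genes, Grik1, a kainate receptor subunit, had 97, 304, 123 and 30 UMIs, past 2-fold higher at day 1 (2.40, 1.90 to 3.05, with 44% of the UMIs in 1 nucleus) and lower at day 7 (0.48, 0.31 to 0.74), and Grin2a was the other. None of 5 metabotropic genes was past 2-fold. Of 28 potassium and HCN channel genes, Kcnn3, a calcium-activated channel, was past 2-fold lower at day 7 (0.49, 0.26 to 0.88) and 0 genes at day 1 and day 3. Of 15 sodium and calcium channel genes, Cacna2d2 was past 2-fold higher at day 3 (2.12, 1.49 to 3.05). Of 12 receptors for serotonin, cannabinoids, acetylcholine and opioids, 1, 0 and 1 were higher and 1, 1 and 1 lower. Htr1f, a serotonin receptor, had 114, 96, 65 and 159 UMIs and was 2.18 (1.71 to 2.80) at day 7 against 0.47 in Lhx6/Nxph1 nuclei, and Cnr1 was 0.47 at day 3 and at day 7. Of 18 adhesion genes, 1, 1 and 0 were higher and 1, 0 and 1 lower, among them Il1rapl2 at day 1 (3.36, 2.68 to 4.26) and Cntn5 at day 7 (0.46, 0.40 to 0.52).

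Of 20 immediate-early genes, 2 had enough UMIs and neither was past 2-fold. Of 8 measured heat shock genes, Hspd1 was past 2-fold at day 3 (2.09, 0.94 to 4.97, an interval that held 1), and the chaperone Hsp90aa1 was 1.86 (1.17 to 3.00). Of 7 hypoxia genes, Hif1a, the oxygen-sensing transcription factor, was 2.06 (1.06 to 4.22) at day 3. None of 7 axon injury and p53 genes was past 2-fold, and the growth cone gene Stmn2 was 0.70 (0.52 to 0.95) at day 1. Among 8 nuclear noncoding RNAs, Neat1 had 7, 64, 18 and 1 UMIs, with 84% of the day 1 UMIs in 1 nucleus, and Malat1 stayed at 1.18, 1.07 and 1.22 times sham.

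Mitochondrially encoded genes, which nuclei should lack, had list medians of 1.11, 0.66 and -1.08, with 5, 1 and 0 of 9 genes past 2-fold higher and 0, 1 and 6 lower. The direction turned with free RNA subtracted, at -0.31 at day 1 and -1.44 at day 3, and without the Igfbpl1 cluster, at -0.090 at day 3. Mitochondrial RNA made up 0.361%, 0.887%, 0.545% and 0.141% of member UMIs. One nucleus held 59.1% of these UMIs in sham, 54.2% at day 1 and 38.2% at day 3, and without it the shares were 0.160%, 0.418% and 0.349%, and 0.133% at day 7. The median nucleus stood at 0.102%, 0.133%, 0.200% and 0.150%. Barcodes of at most 100 UMIs held 1.11% to 2.69%, above the members in every library.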

How the data were processed

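Nuclei of 4 libraries, 1 a group as labelled, were isolated over sucrose and run on 10x Genomics. The authors aligned reads with STARsolo (STAR 2.7.3a per the submitters' processing notes) to GRCm38 and deposited raw UMI counts over whole gene bodies, unfiltered, for 46983 genes. The removal of empty droplets and free RNA and the normalization that the study went on to apply are not in these values. The members, gene lists and marker lists were chosen with earlier results of these data known. UMIs were summed over the members of a library and divided by their total (CPM). Ratios to sham carry exact conditional binomial intervals, levels exact Poisson intervals and shares Clopper-Pearson intervals, all at 95% and for counting error only. A sum under 3 UMIs was set to 3, and genes needed 50 UMIs over the 4 libraries. No p-value was computed, because each group holds 1 library.

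Genes named for a day are the 5 each way whose interval lies farthest from 1, with UMIs in at least 8 member nuclei of the higher library and no nucleus above 30% of its UMIs, leaving out the 9 rule genes; against Lhx6/Nxph1 nuclei, the 10 each way whose smallest within-library ratio is farthest from 1, with 50 UMIs in the higher class; and 2 to 4 genes of each of 17 lists by UMIs or ratio. Genes singled out by cluster or for a count of 5 or fewer were chosen after their values were seen. Clusters came from K-means (5 clusters, 50 starts, seed 1) on 4 components of 800 genes seen in at least 15 members, rule genes removed; leading genes came after the clusters. Doublets were scored by the Scrublet scheme (simulated doublets and nearest neighbours, written anew) in each library (0.8% per 1000 barcodes) and kept. Gene positions are from GENCODE of the same build, matched for 456 of 459 names, of which 280 overlap another gene.

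Alternatives covered depth, the Adarb2 threshold, doublets, thinning to 2000 UMIs, TMM scaling (edgeR 4.0.16), the mean of nuclei, the UMI minimum, subtraction of free RNA (profile of barcodes of at most 100 UMIs, an upper estimate) and a fold of 3. Some alternatives were added after seeing the data. These were weighting by cluster, leaving out the Igfbpl1 cluster, keeping only members over 5000 UMIs, and leaving out the deepest Kit nucleus at day 7. The scripts were tested on simulated data. Python 3.11.15, numpy 2.4.6, scipy 1.17.1, pandas 2.3.3, scikit-learn 1.9.0, matplotlib 3.10.9 and R 4.3.3 were used. Values of some genes are not reported here.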

Additional observations from a re-analysis of the deposited data

Results flagged for a closer look

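In some of the genes named above, the members and the Lhx6/Nxph1 nuclei of the same libraries lay on opposite sides of sham on a day, each with an interval that left out a ratio of 1. The differences between the classes were not tested, since each group holds 1 library, and values are log2 ratios to sham, members first. At day 1, Zfp804a had 1.15 and -0.22, Cntnap5b -1.53 and 0.36, Kctd16 -0.72 and 0.20, Sgcz -0.195 and 0.61, Il1rapl2 1.75 and -0.15, Erbb4 -0.40 and 0.079, and Neat1 2.81 and -1.75, the last with 84% of the members' day 1 UMIs in 1 nucleus. At day 3, Cntnap5b had -0.74 and 0.38, Reln -0.76 and 1.04, Erbb4 -0.22 and 0.35 and Malat1 0.094 and -0.16. At day 7, Zfp804a had 1.19 and -0.51, Gpc5 2.57 and -0.75, Htr1f 1.13 and -1.09, Grik1 -1.05 and 0.85, and Cntn5 -1.13 and 0.22. A single nucleus held 32.9% of the members' day 7 UMIs of Zfp804a. For Gpc5 the opposition was at day 7 alone: at day 1 both classes were above sham, at 2.82 and 0.98, and the members' UMIs came mainly from nuclei of the Klhl1 cluster.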

How the results depend on the processing

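No paired analysis was possible because each group holds 1 library. TMM scaling and leaving out doublets moved no count of genes past 2-fold beyond 1.5 times, nor did leaving out doublets so move a share of members. With Adarb2 at 20 UMIs the day 3 members were 1.43% of barcodes and 22.0% of GABAergic nuclei, and the subcortical marker set was 9.09% at day 7. Thinned to 2000 UMIs, with Adarb2 at 2 UMIs or more, members were 0.473%, 0.191%, 0.524% and 0.667% of barcodes and 45.0%, 14.3%, 48.4% and 50% of GABAergic nuclei in sham, day 1, day 3 and day 7. Marker sets then stood, for Sncg, at 6.12% in sham, 2.78% at day 1 and 3.33% at day 7, for nuclei with no set at 46.9%, 58.3%, 37.9% and 66.7%, for Lamp5 at 11.1% at day 1 and for Vip at 0% at day 7. The Igfbpl1 cluster was 0% of day 7 members over 5000 UMIs.

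Counts of genes past 2-fold (higher and lower, day 1, day 3, day 7) were 32 and 45, 37 and 22, 36 and 49 after thinning; 569 and 471, 620 and 558, 486 and 820 at a minimum of 20 UMIs; 20 and 14, 17 and 9, 18 and 31 at 200 UMIs. They were 275 and 584, 479 and 308, 539 and 441 after subtraction of free RNA, and 34 and 14, 44 and 15, 20 and 106 past 3-fold. Genes compared numbered 1250 after thinning, 9619 to 9727 at 20 UMIs and 1826 at 200 UMIs. They numbered 5785 to 5949 after subtraction of free RNA and 6261 to 6263 past 3-fold. Counts of settings with different numbers of genes are therefore not on the same scale. The mean of nuclei gave 234 higher at day 7, and leaving out the Igfbpl1 cluster gave 212 lower at day 3. The split at day 1 was 150 and 151 with Adarb2 at 0.1% of UMIs and 149 and 159 without the Igfbpl1 cluster. Fewer genes reach a higher minimum or a higher fold by construction, and otherwise the cause was not tested.

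The number of lists (of 16 unless given) with a median beyond its counting error was, for the mean of nuclei, 1 above at day 1 and 1 below at day 3; after thinning (11 lists) and at 200 UMIs (13 lists), 1 above and 3 below at day 1; after subtraction of free RNA (15 lists), 4 above at day 1 and 6 below at day 7; with Adarb2 at 0.1%, 7 above and 2 below at day 1; without the Igfbpl1 cluster, 4 above at day 1, 5 above and 2 below at day 3; with equal clusters, 4 above at day 1, 5 above and 0 below at day 3. List medians that changed sign at day 3 were GABA-A subunits (0.014), potassium channels (0.080) and growth factor signalling (0.024) by the mean of nuclei, and potassium channels (0.0068), adhesion (-0.057) and growth factor signalling (0.089) after thinning. Potassium channels were at 0.043 with Adarb2 at 0.1%, 0.055 without the Igfbpl1 cluster and 0.091 with equal clusters. After subtraction of free RNA, heat shock at day 1 was -0.29, and mitochondrial genes were -0.31 at day 1 and -1.44 at day 3; without the Igfbpl1 cluster they were -0.090 at day 3. Glul at day 7 was 0.29 after thinning, where its floor of 3 UMIs stands over a smaller total.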
